A study of Arabidopsis thaliana with 24 samples.

Results

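In plants that had not been heated, 60 Arabidopsis thaliana genes stood at higher transcript levels where the chromatin remodeller BRAHMA (BRM) was missing, both with the histone deacetylase HD2C present and without it. They were chosen from the deposited array values out of 16552 genes measured by a probe set that names 1 gene. A gene was taken if its mean log2 intensity in control conditions was at least 0.8 higher in brm than in wild type (WT), at least 0.8 higher in brm hd2c than in hd2c, and at least 4 in brm. These thresholds were met by 66 genes, and 6 were left out by name (QQS, SWEET4, cwINV6, WSD1, AT1G76380 and the genes with symbols that start with UGT, CYP, EXP or XTH). Every one of the 60 has a single probe set.

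The double mutant is brm-1 hd2c-3 (brm hd2c below), the single mutants are brm-1 (brm) and hd2c-3 (hd2c), and all share the Col-0 background with WT. Each genotype was sampled after 1 h at 38 °C (heat) and in control conditions, which the design text gives as plants collected before the heat treatment. Plants were 3 weeks old, on soil, in 16 h light and 8 h dark at 70% humidity. Each of the 8 groups has 3 arrays, 24 in all, which the design text calls biological replicates, picked for similar levels of unnamed marker genes, a step that can make the spread between arrays look smaller than it is. Neither the lesion of each allele nor the organ sampled is described in the labels. No probe set is named for BRM or HD2C, and their transcripts were not used to check the genotype labels. RNA came from tissue in bulk, where fewer cells of a type and less RNA per cell cannot be told apart.

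BRM is an ATPase of SWI/SNF complexes, which use the energy of ATP to slide, evict or restructure nucleosomes and so change which stretches of DNA are open to the transcription machinery. In Arabidopsis it is known for roles in development, in hormone responses and in keeping embryo genes silent in leaves, and it both activates and represses genes. HD2C belongs to a plant family of histone deacetylases, enzymes that remove acetyl groups from histone tails, a change usually found with lower transcription.

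The names in the files and in the reference gene table describe 11 of the 60 genes, and 49 are known here by locus alone. Of the 11, AT2G40620 (bZIP18) and WRKY29 are DNA-binding transcription factors. GLR2.8 is a member of the glutamate receptor-like cation channels. Secreted or glycan-related proteins are the chitinase CHI, the defensin PDF1.3, the lectin JAL34 and ENGase85A, which cuts N-glycans off glycoproteins. SCPL45 and scpl16 belong to the serine carboxypeptidase-like proteins. NAXT1 is a nitrate excretion transporter and SFP2 a sugar-porter family protein. No 2 of the 60 carry the same symbol stem except SCPL45 and scpl16.

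The control values chose the genes and are given as a description. The difference between brm and WT in control ran from 0.81 to 2.41 with a median of 1.15, and that between brm hd2c and hd2c from 0.81 to 2.08 with a median of 1.06. A linear model across all genes (limma, adjusted p under 0.05) calls 58 of the 60 higher in the first and 56 in the second, against 2.22% and 1.61% of all genes, counts which the choice of genes fixes in large part. At the edge of the threshold, the smaller of the 2 control differences was 0.81 in AT1G66920, AT2G32160 and NAXT1 inside it, and 0.80, 0.80 and 0.79 in AT3G14395, AT2G20142 and SOL1 outside it. At the floor on the level in brm, AT1G26200 and AT5G26690 stood at 4.01 and AT5G39120 at 4.11.

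AT2G35070 had the largest control difference, 2.25 on the log2 scale as the mean of both backgrounds. It stood at 6.76, 6.57 and 6.64 in brm hd2c and 6.48, 7.05 and 7.14 in brm, against 4.26, 4.65 and 4.82 in hd2c and 4.16, 4.44 and 4.84 in WT. The next were AT3G60710 (2.11), AT1G03020 (2.11), AT2G40620 (1.84), AT1G62290 (1.66), AT5G44572 (1.58), AT5G09290 (1.58), AT5G39120 (1.58), AT2G34655 (1.58), CHI (1.55), AT3G57460 (1.54), GLR2.8 (1.51), AT4G03450 (1.49), AT1G44130 (1.43) and AT2G37980 (1.42). AT5G39120 was the least even of these between backgrounds, with 2.26 for brm against WT and 0.90 for brm hd2c against hd2c.

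The heat arrays entered none of the thresholds of the choice, though the choice was made with earlier results of these data known. They show the same genes again higher where BRM was missing. The median over the 60 genes on a single heat array lay between 5.05 and 5.50 in brm hd2c and between 5.26 and 5.57 in brm, against 4.07 to 4.19 in hd2c and 4.11 to 4.13 in WT. All 6 heat arrays without BRM thus lay above all 6 with BRM in this summary of the 60 genes. The median over all 16552 genes lay between 3.22 and 3.32 on the heat arrays.

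**Figure D1:**
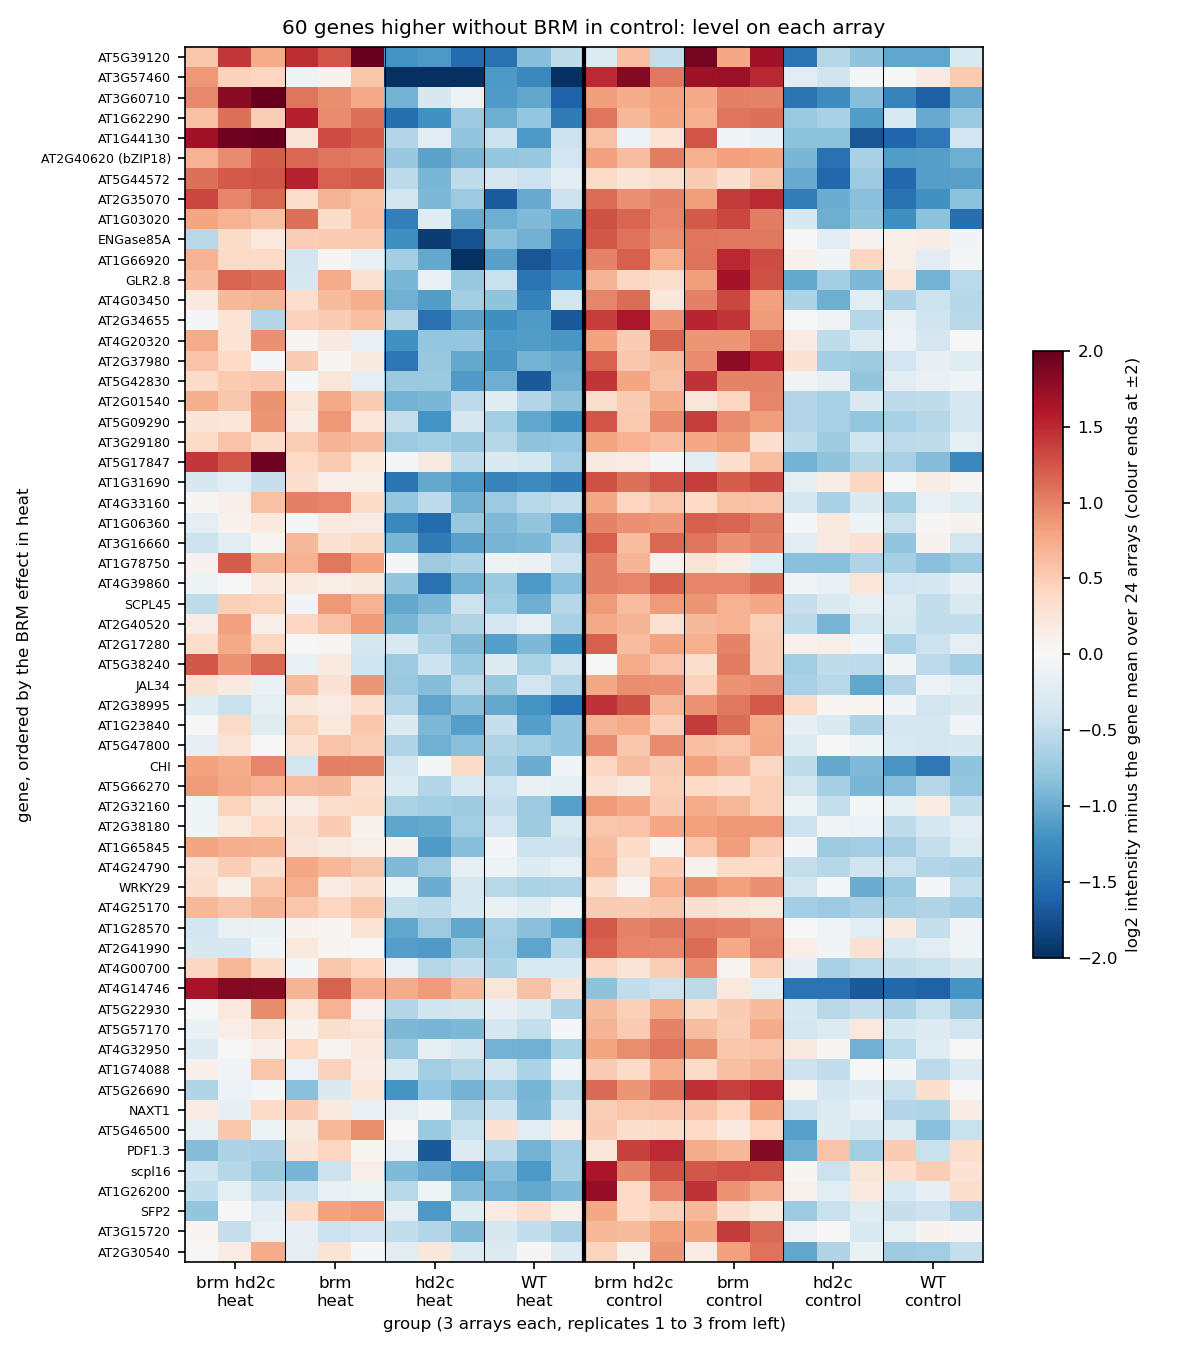
Colour shows the log2 intensity of each of the 60 genes (one row each, ordered by the BRM effect in heat) on each of the 24 arrays (columns, 3 per group, heat on the left), minus that gene's mean over all arrays. Arrays of brm hd2c and brm are red and those of hd2c and WT blue for most genes in heat and in control, and the rows at the bottom lose this contrast in heat.

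The BRM effect in heat is the mean of 2 differences in log2 intensity, brm minus WT and brm hd2c minus hd2c, tested with limma over all genes. The p-values were adjusted by Benjamini and Hochberg's method, genes under 0.05 are called, and each ± after a difference is the moderated standard error (SE). Of the 60 genes, 53 rose without BRM in heat, none fell and 7 were not called, while 5.20% of all genes rose and 4.05% fell. Among the genes that share the floor on the control level in brm the share that rose was 9.15%. The median effect of the 60 was 1.03 (range 0.28 to 2.42), and that of all genes was −0.02.

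Each background gave a similar count on its own. Of the 60 genes, 47 rose in brm against WT in heat (2.79% of all genes), with a median of 1.07, and 48 rose in brm hd2c against hd2c in heat (3.01% of all genes), with a median of 1.05. None fell in either, where 2.31% and 2.02% of all genes fell. Both comparisons called 43 of the genes (1.11% of all genes), 1 of the 2 called 9, and neither called 8. The brm mean lay above the WT mean in heat for all 60 genes, and the brm hd2c mean above the hd2c mean for 59, PDF1.3 being the exception.

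For 42 of the 60 genes all 6 heat arrays without BRM lay above all 6 with BRM (1.78% of all genes, 3.50% of those past the floor), and for none did they lie below (1.73% of all genes). In both backgrounds the difference in heat reached 0.8, the size asked for in control, for 37 genes (0.610% of all genes). Plotted against each other, the control and heat effects of BRM had a Pearson r of 0.67 and a Spearman rho of 0.60 over the 60 genes. They share no arrays, but the control values were cut off at 0.8, so the correlation is a description. The heat effect was the larger one in 21 of the 60. Since the control values were chosen to be high, the difference between conditions was not tested.

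**Figure D2:**
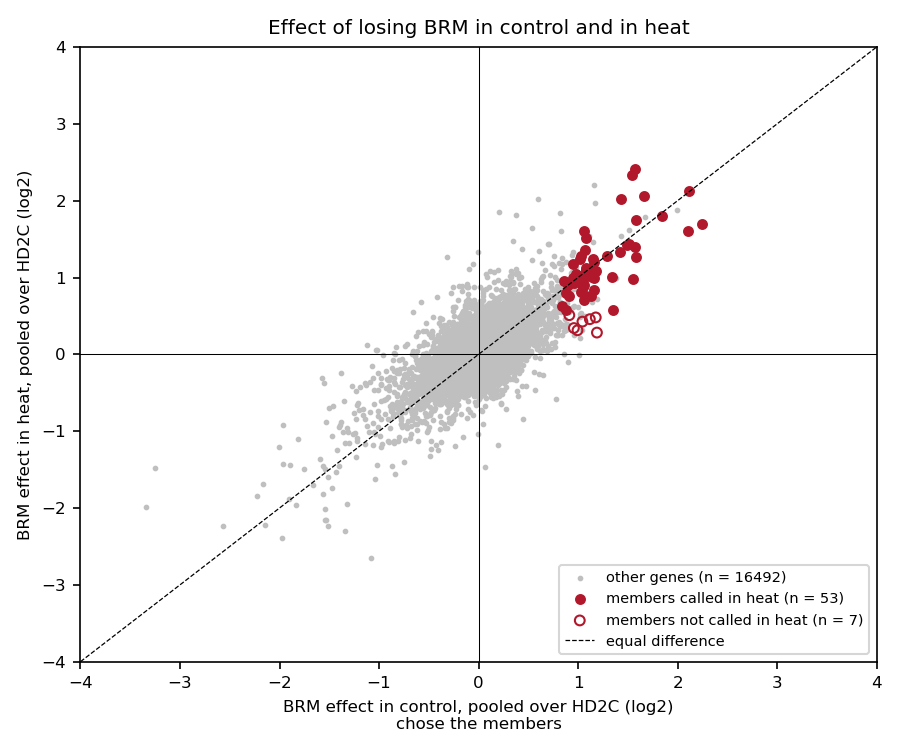
Each point is a gene, with the BRM effect in control on the x axis and in heat on the y axis, both log2 differences pooled over HD2C. The 60 genes (red) lie right of 0.8 by their choice, the 53 called in heat (filled) between 0.57 and 2.42 on the y axis and the 7 not called (open) between 0.28 and 0.51.

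Among the transcription factors, AT2G40620 (bZIP18) showed the clearest separation. In heat it stood at 6.82, 7.07 and 7.34 in brm hd2c and 7.28, 7.19 and 7.17 in brm, against 5.37, 5.05 and 5.20 in hd2c and 5.35, 5.36 and 5.75 in WT. The lowest array without BRM was above the highest with BRM by over 1 on the log2 scale, and the effect was 1.80 ± 0.12 (adjusted p = 9.26e-10). WRKY29, a WRKY factor known from signalling after bacterial flagellin is perceived, was chosen for its annotation after its values were seen. It stood at 4.47, 4.24 and 4.68 in brm hd2c and 4.83, 4.29 and 4.41 in brm in heat, against 4.02, 3.13 and 3.79 in hd2c and 3.57, 3.48 and 3.52 in WT. The groups do not overlap, and the effect was 0.90 ± 0.17 (adjusted p = 6.94e-04).

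GLR2.8, one of the glutamate receptor-like channels that let cations through the membrane, also rose. Its heat values were 4.50, 5.05 and 4.99 in brm hd2c and 3.57, 4.62 and 4.19 in brm, against 2.96, 3.74 and 3.13 in hd2c and 3.44, 2.43 and 2.61 in WT. One brm array lay under the highest hd2c array, and the effect was 1.43 ± 0.22 (adjusted p = 6.85e-05).

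Of the glycan-related and defence proteins, ENGase85A had the largest effect in heat. It stood at 4.80, 5.72 and 5.56 in brm hd2c and 5.85, 5.88 and 5.87 in brm, against 4.13, 3.45 and 3.62 in hd2c and 4.53, 4.40 and 3.94 in WT. The groups do not overlap (1.60 ± 0.14, adjusted p = 3.28e-08). JAL34, a jacalin-related lectin of a family that binds sugars, was at 5.0, 4.88 and 4.56 in brm hd2c and 5.34, 4.99 and 5.59 in brm, against 3.95, 3.82 and 4.15 in hd2c and 3.95, 4.32 and 4.09 in WT. Here too no arrays overlap, and the effect was 1.01 ± 0.13 (adjusted p = 5.71e-06).

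CHI, named as a putative chitinase, an enzyme class that breaks down the chitin of fungal walls, was at 5.05, 4.98 and 5.21 in brm hd2c and 3.88, 5.25 and 5.23 in brm in heat. In hd2c it stood at 3.87, 4.20 and 4.60 and in WT at 3.59, 3.25 and 4.19. The first brm array lay among those with BRM, and the effect was 0.98 ± 0.20 (adjusted p = 0.00178). PDF1.3, a small cysteine-rich defensin, was not called. Its heat values were 4.81, 5.06 and 5.04 in brm hd2c and 5.94, 6.12 and 5.74 in brm, against 5.53, 4.0 and 5.41 in hd2c and 5.16, 4.73 and 5.0 in WT. All brm arrays lay above all WT arrays, while brm hd2c overlapped hd2c, and the pooled effect was 0.48 ± 0.29 (adjusted p = 0.374).

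The 2 serine carboxypeptidase-like genes parted in heat. SCPL45 stood at 5.28, 6.27 and 6.24 in brm hd2c and 5.74, 6.65 and 6.49 in brm, against 4.77, 4.87 and 5.36 in hd2c and 5.10, 4.81 and 5.23 in WT. It rose by 1.09 ± 0.16 (adjusted p = 6.30e-05), with 1 brm hd2c array under the highest hd2c array. The heat values of scpl16 were 3.95, 3.77 and 3.60 in brm hd2c and 3.41, 3.92 and 4.45 in brm, against 3.46, 3.33 and 3.20 in hd2c and 3.49, 3.20 and 3.68 in WT. The groups overlap and the effect of 0.46 ± 0.15 was not called (adjusted p = 0.0543). Whether the 2 genes differ in their effect was not tested.

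Both transporters had small effects in heat. NAXT1, known for passing nitrate out of root cells, was at 5.13, 4.81 and 5.35 in brm hd2c and 5.48, 5.16 and 4.83 in brm, against 4.80, 4.92 and 4.37 in hd2c and 4.54, 4.07 and 4.62 in WT. It rose by 0.57 ± 0.15 (adjusted p = 0.0118), with 2 arrays without BRM under the highest hd2c array. SFP2 was at 3.74, 4.53 and 4.31 in brm hd2c and 4.89, 5.33 and 5.37 in brm, against 4.33, 3.37 and 4.28 in hd2c and 4.68, 4.83 and 4.64 in WT. All brm arrays lay above all WT arrays (0.48 ± 0.22), while brm hd2c overlapped hd2c (0.21 ± 0.22). The pooled BRM effect of 0.34 ± 0.16 was not called (adjusted p = 0.212).

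**Figure D3:**
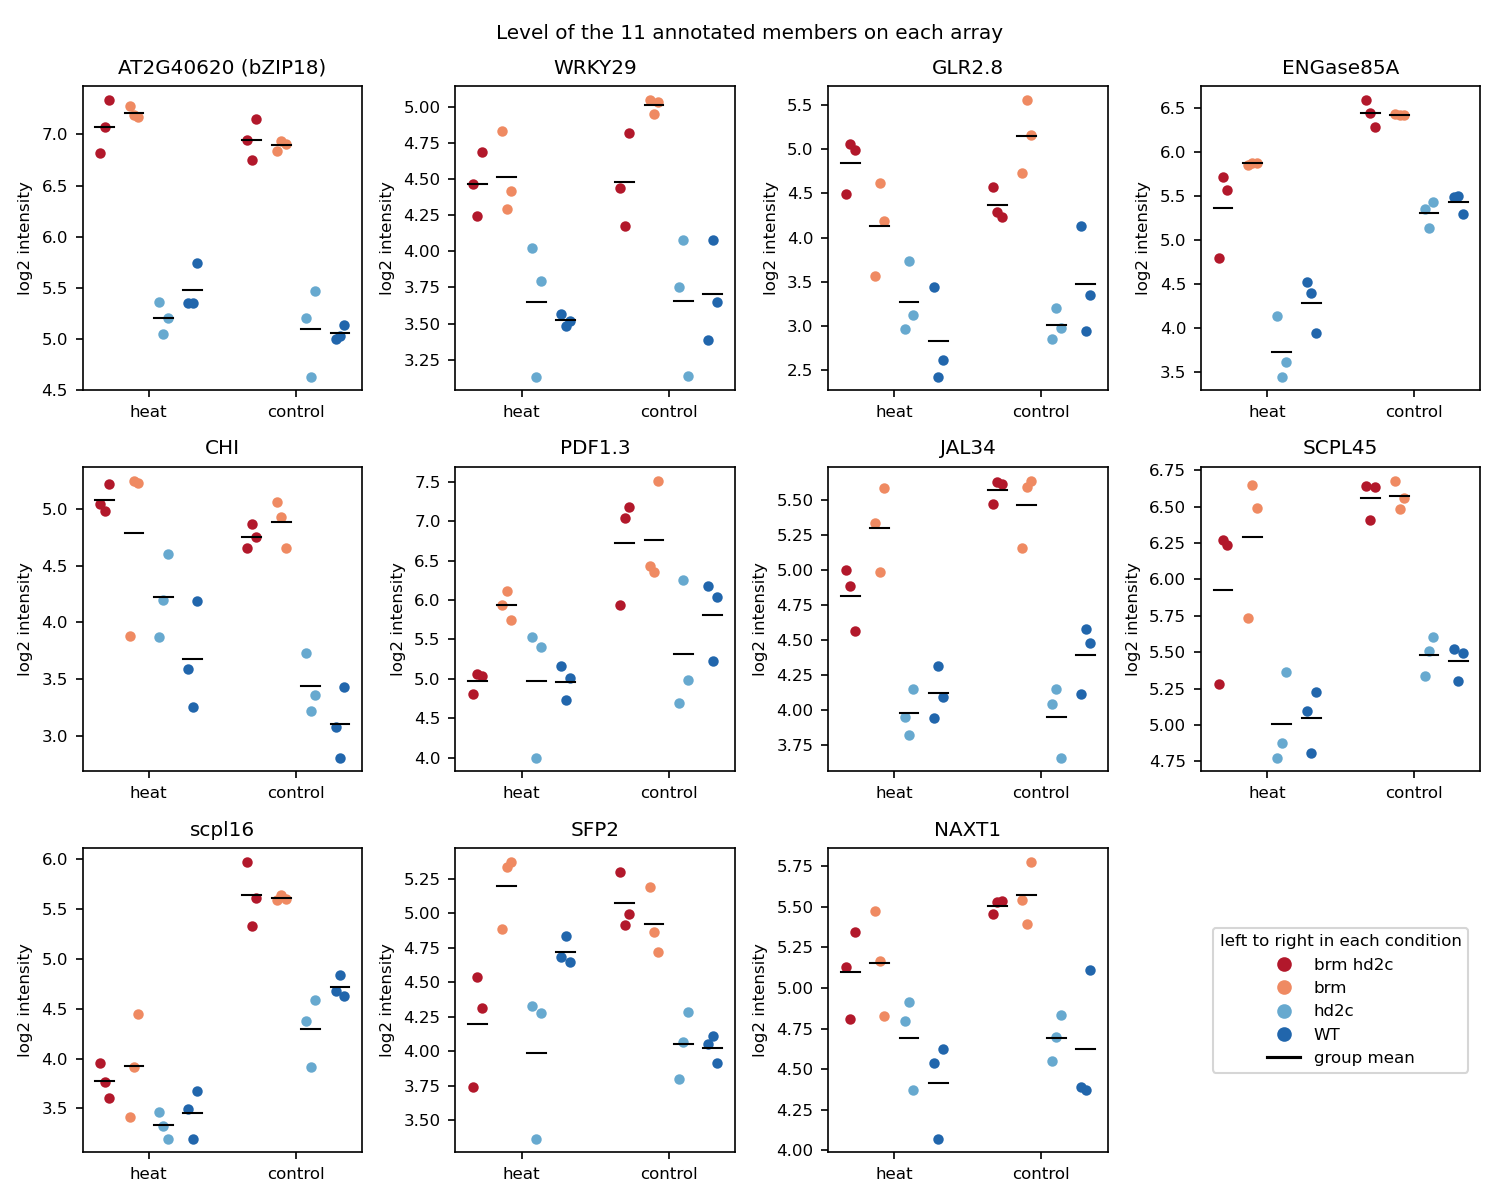
Log2 intensity (y axis, own range in each panel) of the 11 annotated genes on each array, with brm hd2c, brm, hd2c and WT from left to right in heat and then in control, and bars at group means. ENGase85A and AT2G40620 keep the groups with and without BRM apart in heat, and scpl16, PDF1.3 and SFP2 overlap there.

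Among the genes known only by locus, AT5G39120 had the largest BRM effect in heat, 2.42 ± 0.25 (adjusted p = 4.25e-07). It stood at 3.20, 4.06 and 3.39 in brm hd2c and 4.13, 3.90 and 4.97 in brm, against 1.45, 1.5 and 1.12 in hd2c and 1.15, 1.80 and 2.14 in WT. With BRM present its levels lie under the median of all genes on these arrays, so the size of this difference rests on dim values. AT3G57460 followed with 2.33 ± 0.18 (adjusted p = 4.92e-09). Its heat values were 6.17, 5.75 and 5.73 in brm hd2c and 5.20, 5.37 and 5.86 in brm, against 3.25, 2.84 and 2.87 in hd2c and 4.15, 4.01 and 2.97 in WT. For both AT5G39120 and AT3G57460 every heat array without BRM lay above every heat array with it.

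AT3G60710 rose by 2.12 ± 0.17 without BRM in heat (adjusted p = 1.10e-08). It stood at 4.84, 5.69 and 5.95 in brm hd2c and 4.95, 4.81 and 4.64 in brm. In hd2c it was at 2.95, 3.56 and 3.77 and in WT at 2.75, 2.85 and 2.27. AT1G62290 rose by 2.06 ± 0.16 (adjusted p = 6.64e-09), with 5.06, 5.59 and 4.97 in brm hd2c and 6.03, 5.43 and 5.59 in brm, against 2.97, 3.28 and 3.75 in hd2c and 3.51, 3.71 and 3.08 in WT. AT1G44130 rose by 2.02 ± 0.26 (adjusted p = 7.82e-06), with 6.22, 6.49 and 6.69 in brm hd2c and 4.80, 5.85 and 5.76 in brm, against 3.97, 4.33 and 3.76 in hd2c and 4.12, 3.40 and 4.12 in WT. In all of them the arrays with and without BRM did not overlap. The same holds for AT5G44572 (1.75 ± 0.12), AT2G35070 (1.69 ± 0.17) and AT1G03020 (1.61 ± 0.16), the others among the 10 largest effects in heat beside AT2G40620 and ENGase85A.

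The 8 smallest effects in heat belong to AT2G30540 (0.28 ± 0.18), AT3G15720 (0.31 ± 0.11), SFP2, AT1G26200 (0.43 ± 0.18), scpl16, PDF1.3, AT5G46500 (0.51 ± 0.17) and NAXT1, of which NAXT1 was called. AT3G15720 stood at 3.68, 3.17 and 3.50 in brm hd2c and 3.48, 3.21 and 3.26 in brm in heat, against 3.15, 3.06 and 2.76 in hd2c and 3.32, 3.15 and 2.99 in WT (adjusted p = 0.0865). In control the same gene had 4.31, 4.27 and 4.46 in brm hd2c and 4.44, 5.04 and 4.78 in brm, against 3.53, 3.63 and 3.34 in hd2c and 3.45, 3.71 and 3.67 in WT. The control arrays do not overlap, as the choice of genes favours, and the heat arrays do. AT2G30540 was at 3.54, 3.71 and 4.29 in brm hd2c and 3.34, 3.82 and 3.50 in brm in heat, against 3.33, 3.77 and 3.28 in hd2c and 3.27, 3.56 and 3.29 in WT (adjusted p = 0.398).

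Whether the BRM effect in heat depends on HD2C was tested as the difference of the 2 differences, brm hd2c minus hd2c against brm minus WT. One of the 60 genes, AT5G38240, was called, and 0.199% of all genes were called in either direction. Its heat values were 5.14, 4.78 and 5.04 in brm hd2c and 3.16, 3.47 and 3.14 in hd2c, a difference of 1.73 ± 0.20. In brm it stood at 3.74, 4.09 and 3.50 and in WT at 3.63, 3.25 and 3.52, a difference of 0.31 ± 0.20. The difference of differences was 1.42 ± 0.29 (adjusted p = 0.0417), and brm hd2c stood above every other heat group without overlap. The call was lost under 17 of 32 other settings, among them leaving out any one of 14 arrays.

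For the other 59 genes the test made no call. At an unadjusted p under 0.05 there were 11 of the 60 and 1577 of all 16552 genes. The largest uncalled differences were in AT3G57460 (1.13 ± 0.35, adjusted p = 0.243) and PDF1.3 (−0.98 ± 0.58, adjusted p = 0.640). Over the 60 genes the effects in the 2 backgrounds had a Pearson r of 0.62 and a Spearman rho of 0.59, with no arrays shared between the axes. A missed call does not show that the effects are equal, and the SE of these differences had the size of 0.29 in AT5G38240 and 0.58 in PDF1.3.

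**Figure D4:**
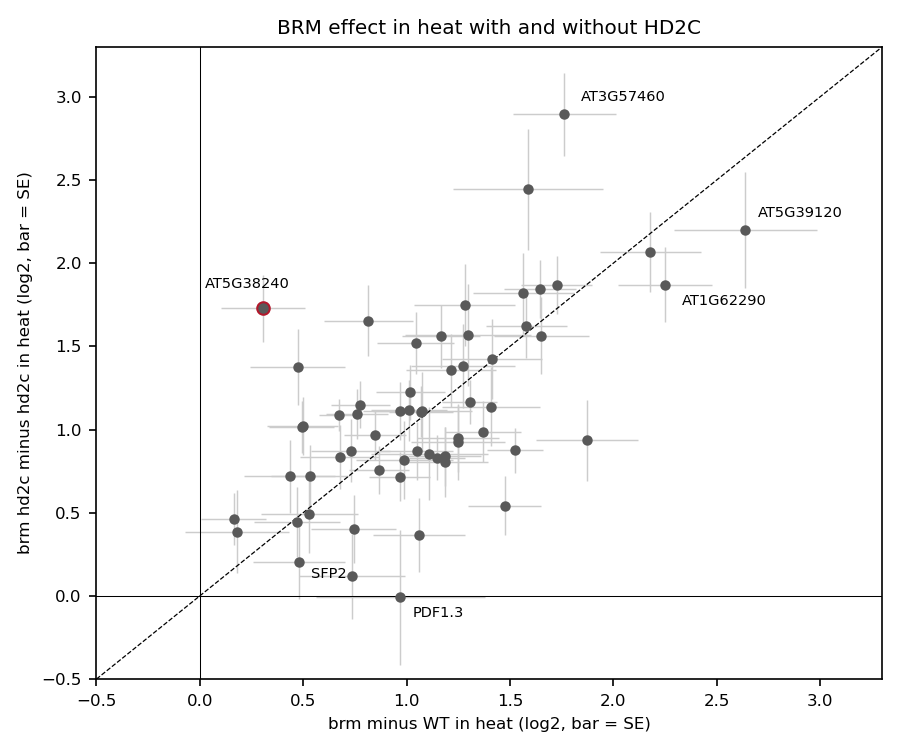
Each point is 1 of the 60 genes, with brm minus WT in heat on the x axis and brm hd2c minus hd2c in heat on the y axis (log2, bars are SE), and the dashed line marks equal effects. AT5G38240 (red) lies at 0.31 and 1.73, and PDF1.3 lies at 0.97 and −0.01.

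The effect of losing HD2C was taken as the mean of brm hd2c minus brm and hd2c minus WT. In control none of the 60 genes was called, and 0.0242% of all genes were. At an unadjusted p under 0.05 there were 5 of the 60 and 512 of all genes, and limma without moderation also called none of the 60. The median over the 60 was −0.02. The floor on the brm control level may push this effect down, and AT5G39120 stood close to that floor at 4.11 in brm. AT5G39120 had the largest value, −0.83 ± 0.25 (adjusted p = 1), with 2.37, 3.25 and 2.17 in brm hd2c against 4.56, 3.43 and 4.33 in brm, and 1.19, 2.08 and 1.84 in hd2c against 1.61, 1.60 and 2.34 in WT.

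In heat 5 of the 60 genes rose without HD2C and 4 fell, 15% of them, where 3.37% of all genes rose and 2.72% fell. Called in either direction were 6.08% of all genes and 10.8% of those past the floor. The genes that rose were AT3G60710 (0.75 ± 0.17), AT5G17847 (0.74 ± 0.15), AT4G14746 (0.64 ± 0.12), AT2G17280 (0.54 ± 0.13) and AT5G38240 (0.50 ± 0.14). Those that fell were SFP2 (−0.86 ± 0.16), ENGase85A (−0.53 ± 0.14), AT3G16660 (−0.48 ± 0.14) and AT4G24790 (−0.36 ± 0.11). AT4G24790 lost its call under 26 of the other settings run, equal array medians and the replicate block among them, AT3G16660 under 19, AT5G38240 under 12, ENGase85A under 7 and AT3G60710 under 1. Calls ran from 5 to 12 when 1 array was left out, with 5 without the first WT heat array, the first brm hd2c heat array or the second hd2c heat array.

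SFP2 and AT4G14746 show what a called HD2C effect, averaged over both backgrounds, looks like on the arrays. All 6 heat arrays of SFP2 without HD2C, given above, lay under all 6 with HD2C (adjusted p = 0.00158). AT4G14746 stood at 6.95, 7.14 and 7.13 in brm hd2c against 5.99, 6.48 and 6.04 in brm, and at 6.04, 6.15 and 5.97 in hd2c against 5.55, 5.89 and 5.57 in WT (adjusted p = 0.00213). For this gene the hd2c heat arrays all lay above the WT heat arrays, and the brm hd2c heat arrays above all others. Its BRM effect in heat, 0.76 ± 0.12, was called as well (adjusted p = 1.47e-04).

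Heat itself was tested as heat minus control averaged over the 4 genotypes. This measure shares the control arrays with the choice of genes, but not the differences used there, while the floor on the brm control level may push it down slightly. Of the 60 genes 32 fell in heat (53.3%), 10 rose (16.7%) and 18 were not called. Of all genes 19.9% fell and 17.5% rose, and of those past the floor 36.1% fell and 25.1% rose. The median was −0.27 for the 60 and 0.03 for all genes.

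AT3G57460 fell the most, by 1.57 on the log2 scale (SE 0.12, adjusted p = 5.93e-10). It stood at 6.17, 5.75 and 5.73 in heat against 6.79, 7.13 and 6.35 in control in brm hd2c, and at 5.20, 5.37 and 5.86 in heat against 7.0, 7.03 and 6.81 in control in brm. In hd2c it was at 3.25, 2.84 and 2.87 in heat against 5.09, 4.89 and 5.28 in control, and in WT at 4.15, 4.01 and 2.97 in heat against 5.31, 5.50 and 5.81 in control. The heat arrays lay under the control arrays in every genotype. Next came scpl16 (−1.44 ± 0.10), AT1G31690 (−1.35 ± 0.07), AT1G66920 (−1.18 ± 0.12), AT5G26690 (−1.12 ± 0.11) and ENGase85A (−1.09 ± 0.10).

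AT4G14746 rose the most, by 1.87 ± 0.09 (adjusted p = 4.13e-14). Its heat values, given above, compare with control values of 4.49, 4.82 and 4.88 in brm hd2c, 4.78, 5.52 and 5.12 in brm, 3.83, 3.83 and 3.63 in hd2c and 3.73, 3.70 and 4.12 in WT. It was the only one of the 60 genes whose WT heat mean lay above its brm control mean (5.67 against 5.14). AT1G44130 (0.82 ± 0.18), AT5G44572 (0.77 ± 0.09), AT5G17847 (0.68 ± 0.11), AT1G78750 (0.42 ± 0.12) and AT3G60710 (0.40 ± 0.12) also rose.

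The BRM effect in heat was called in 28 of the 32 genes that fell in heat, in all 10 that rose and in 15 of the 18 without a call, with medians of 1.03, 1.16 and 0.97. For 54 of the 60 genes the brm heat mean lay above the WT control mean, and for 50 the brm hd2c heat mean lay above the hd2c control mean. The choice of genes favours these counts, since it used the WT and hd2c control means, so they are a description. Split by genotype, the median heat response of the 60 was −0.38 in brm hd2c, −0.48 in brm, −0.30 in hd2c and −0.29 in WT. Each of these uses control arrays that chose the genes, and they were not tested against each other.

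**Figure D5:**
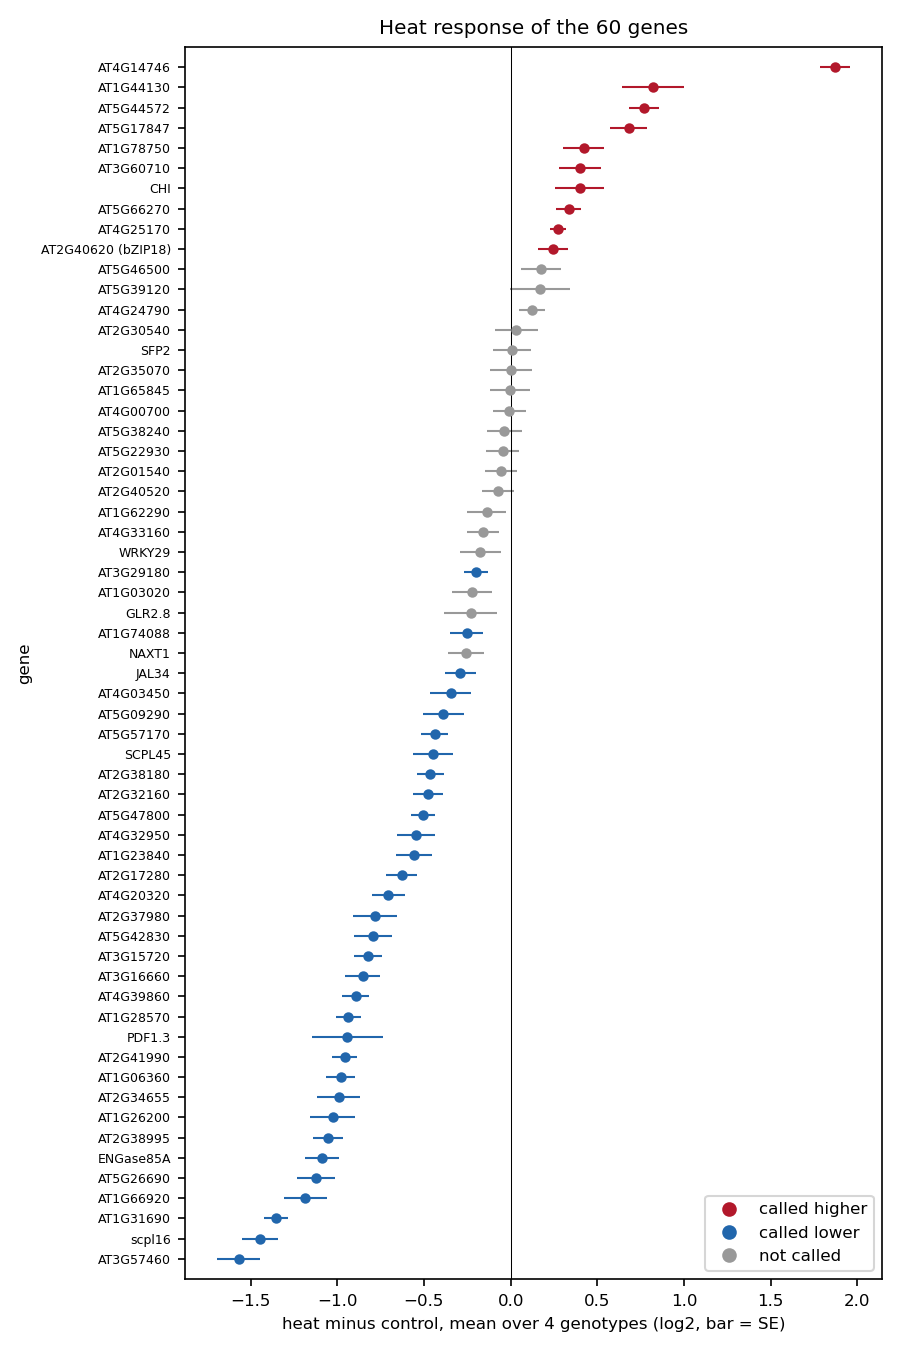
Heat minus control, averaged over the 4 genotypes (x axis, log2, bars are SE), for each of the 60 genes sorted by it (y axis). Genes that fell are blue (32), genes that rose red (10) and those not called grey (18), from −1.57 in AT3G57460 to 1.87 in AT4G14746.

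The 60 genes lie on all 5 nuclear chromosomes, with 13, 15, 8, 10 and 14 genes on chromosomes 1 to 5. Chromosome 2 holds 25% of them and 15.3% of all genes, and chromosome 3 holds 13.3% and 20.4%, shares given without a test. A single pair, AT2G40520 and AT2G40620, lies within 10 genes of each other in the reference gene order. Of the 77 measured genes that directly adjoin one of them and are not themselves among the 60, 3 rose without BRM in heat, AT1G28580 (0.80), WRKY6 (0.61) and AT5G42840 (0.44). AT1G28100, AT1G31710, AT2G32150 and AT3G60700 fell, and the median over the 77 was 0.00. Of all genes 5.20% rose without BRM in heat and 4.05% fell, and the 77 were not tested against these shares. AT5G42840 and AT3G60700 were dim, with means of 2.07 and 1.88 over the arrays.

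Relatives of the annotated genes did not move as a block. These comparisons cover the measured genes of each family outside the 60, and those named were chosen after their values were seen. Of all genes 5.20% rose without BRM in heat and 4.05% fell, and of those past the floor 9.15% rose. No family was tested against these shares. Of 6 other WRKY genes, WRKY47 (0.77) and WRKY6 rose without BRM in heat and WRKY42 (−0.88) fell. Of 24 other bZIP genes 6 rose and 1 fell. Of 30 other serine carboxypeptidase-like genes scpl46 (0.60) and scpl20 (0.43) rose, and scpl48 (−0.48) and SCPL34 (−1.02) fell. Of 12 other defensins PDF1.4 (0.75) rose, and PDF1.2 (−1.44), LCR68 (−0.60) and LCR66 (−0.48) fell.

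Of 9 other glutamate receptor-like genes GLR3.3 (0.48) rose without BRM in heat and none fell. Of 12 other nitrate and peptide transporter genes 3 rose and 3 fell. Of the 4 other jacalin-related lectins JAL23 fell (−0.82), against the rise of JAL34, and the rest were not called.

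Lists of genes from pathways that BRM is known to touch held few measured members. None of 6 measured seed maturation genes, of 26 listed, was called in control or heat, and each had a mean under 4 over the arrays. Of 11 measured SWI/SNF subunits, of 19 listed, AT1G76380, AT1G20670 and AT5G55040 rose without BRM in heat (1.98, 0.73 and 0.54) and none fell. Of all genes 5.20% rose and 4.05% fell, and no list was tested against these shares. AT1G76380 is among the genes that the rule leaves out by name, with a BRM effect of 1.17 in control. Both measured jasmonate genes fell without BRM in heat, PDF1.2, a defensin induced by jasmonate, and THI2.1 (−1.36), a thionin. Another 8 listed were not measured. Of 2 measured gibberellin genes, of 13 listed, the receptor gene GID1B rose without BRM in heat (0.78). No salicylate gene of 10 listed was measured.

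Markers of organs and cell types were few, and their part in the results was not tested. Of 15 root markers 2 were measured, and PYK10, a beta-glucosidase of roots, rose without BRM in heat (0.80) and was higher in control (0.90), while EXPA7 of root hairs stood at a mean of 2.22 and was not called. The summed intensity of both in heat ran from 328 to 473 in brm hd2c and 675 to 815 in brm, against 262 to 307 in hd2c and 295 to 449 in WT. Of 20 leaf photosynthesis genes LHCB4.1 and RCA were measured. Neither was called in heat, and LHCB4.1 was higher without BRM in control (0.25, adjusted p = 0.0468). Their sums in heat were 2601 to 2998 in brm hd2c and 2753 to 2980 in brm. They were 2586 to 3123 in hd2c and 2632 to 2929 in WT.

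Of 9 stomatal lineage genes 3 were measured. Without BRM in heat SPCH (0.85) and MUTE (0.48) rose and FMA (−0.36) fell. Their sums in heat were 120 to 150 in brm hd2c and 132 to 147 in brm. They were 101 to 133 in hd2c and 114 to 139 in WT. Of 16 flower and flowering-time genes AGL24 was measured. It fell without BRM in heat (−1.59), at 19.1 to 30.1 in brm hd2c and 29.3 to 33.6 in brm. In hd2c it ran from 72.4 to 90.0 and in WT from 74.6 to 106. Of 9 senescence genes 2 were measured. SAG101 rose without BRM in heat (0.54) and SAG29 was not called. Their sums in heat were 27.9 to 39.7 in brm hd2c and 22.8 to 30.3 in brm. They were 18.4 to 23.0 in hd2c and 19.4 to 25.3 in WT.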

How the data were processed

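Biotin-labelled cDNA from total RNA was hybridised to 24 Affymetrix arrays. The authors deposited log2 values, 1 per array for each of 38408 probe sets, and RMA and Partek are named, with no version, in the submitters' processing notes. Batches and the genome build are not given in the sources used here. Of the probe sets, 16746 name 1 gene, 758 name several and 20904 name none, and only the first were used. Where a gene had several, the one brightest on average was kept, which left 16552 genes. The reference table of assembly TAIR10.1 held 16418 of them and served for names and gene order.

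A linear model with 8 group means was fitted to all arrays (limma 3.58.1, R 4.3.3; residual degrees of freedom 16, prior 6.25). Tests were two-sided, with Benjamini-Hochberg adjustment over all 16552 genes and a threshold of 0.05. The SE pools a gene's spread over all 8 groups. There were 7 tested comparisons, of which the 3 BRM effects in heat were tested on simulated data with known changes. The number of arrays limits the precision. Tables and plots were made in Python 3.11.15 with pandas 2.3.3 and matplotlib 3.10.9.

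The 60 genes, the gene lists and the naming rule were chosen with earlier results of these data known. The rule names the 15 largest control effects, the 10 largest and the 8 smallest BRM effects in heat, up to 6 heat responses in each direction, all HD2C calls, genes in a list, gene neighbours and genes at the thresholds. Deviations of same-numbered arrays had a median r of 0.03 over 84 pairs (highest 0.409). Pairs with other numbers had −0.02 over 168 pairs (highest 0.255). An r over 0.1 was reached by 23 of the 84 and 26 of the 168. The numbers were not taken to pair arrays, and calls with the number as a block are given below. Alternatives changed the scaling, the spread model, the arrays in the fit, the filter on low values, the probe set, the thresholds, and single arrays.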

Additional observations from a re-analysis of the deposited data

Results flagged for a closer look

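AT5G38240 stood out because its BRM effect in heat differed between the HD2C backgrounds by the test of the difference itself, 1.42 on the log2 scale (brm hd2c minus hd2c, 1.73, against brm minus WT, 0.31). In control, where the values chose the gene, the matching differences were 1.02 and 1.06.

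The probe sets without a gene name, 20904 in number, were not used in any comparison. Of these, 83 met the control thresholds of the rule, and in 50 of the 83 all 6 heat arrays without BRM lay above all 6 with BRM, against 1.37% of all probe sets without a name. Their median BRM difference in heat was 1.07.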

How the results depend on the processing

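The BRM effect in heat was called only as higher in the alternatives run, with 52 to 55 genes called when 1 array was left out, 40 to 48 for brm against WT and 43 to 50 for brm hd2c against hd2c. Of the 53 pooled calls, 52 held under each setting that tested the gene, and AT5G26690 was lost under 5. The filter on low values tests 43 of the 60 genes, so the rest have no value there. With both control differences at 0.6 or more, 95 of 116 genes were called (74 and 78 in the separate backgrounds), and at 1 or more 27 of 29 (25 and 25). The difference between backgrounds had 0 calls with array weights and with heat arrays alone. It had 2 at 0.6, 2 with the genes left out by name kept in, and 0 to 1 when 1 array was left out. The filter on low values gave 0 calls too, but it leaves AT5G38240 untested. The HD2C effect in heat had 4 calls with heat arrays alone, 19 at 0.6, 2 at 1, and 5 to 12 when 1 array was left out, and 4 of its 9 calls held under each setting that tested the gene. The HD2C effect in control had 0 calls in all of them. The heat response had 85 calls at 0.6, 20 at 1, and 40 to 43 when 1 array was left out. Of its 42 calls, 37 held under each setting that tested the gene, and AT1G74088, AT2G40620, CHI, AT3G29180 and AT4G03450 were lost under some. The causes were not tested. The fit on the arrays of 1 condition has no counterpart for the heat response. Equal array medians and cyclic loess, alternatives on membership added after seeing the data, let 61 and 62 genes meet the rule, all 60 among them, and leaving out 1 control array let 56 to 64 meet it, with 51 to 59 of the 60.

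With the replicate number as a block, the calls were 48, 48 and 53 for the BRM effect in heat with HD2C present, without it and pooled, 1 for their difference, 0 and 9 for the HD2C effect in control and heat, and 42 for the heat response. Of the 24 arrays 11 correlated best with their own number. Dim levels, such as those of AT5G39120 with BRM present, limit how well a difference is measured.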
